A study of Homo sapiens with 12 samples.

Results

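The 9 genes described here encode enzymes that make, oxidise or conjugate estrogens: STS, HSD17B1, HSD17B2, HSD17B4, HSD17B8, CYP1A1, CYP1B1, SULT1A1 and UGT2B15. They were chosen by name for estrogen conversion, hydroxylation and conjugation, and all 9 were found among the 55882 gene symbols of the count table. Of the 9, 7 passed a filter on low counts that 14799 genes passed in all, and HSD17B2 and UGT2B15 did not. RNA was sequenced from T47D cells, an established human breast cancer line that carries the estrogen receptor, in 12 libraries, 3 in each of 4 groups: HOXB13-expressing cells with estradiol, HOXB13-expressing cells with vehicle, control cells with estradiol, and control cells with vehicle. HOXB13, a homeobox transcription factor, was expressed ectopically, and the labels call the control cells WT without saying whether they carry an empty vector. All 4 groups were grown for 24 h in phenol-free DMEM with 10% serum and then for 72 h with 10% charcoal-stripped serum, which holds little steroid, before 24 h with 2 nM estradiol or with its ethanol vehicle. The labels do not say whether the HOXB13 line is 1 clone, nor whether each replicate came from its own culture. The p-values therefore cover only how far the libraries of a group differ, and that spread may be technical.

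Estrogens act within a cell at a level that local enzymes help to set. Steroid sulfatase frees estrone and other steroids from their sulfates, reductive 17-beta-hydroxysteroid dehydrogenases turn estrone into the stronger estradiol, and oxidative ones turn it back. Cytochrome P450 enzymes of the CYP1 family hydroxylate the steroid ring to catechol estrogens, and sulfotransferases and glucuronosyltransferases attach groups that make the products soluble and inactive at the receptor. In breast tumours this local balance is a well-known feature of estrogen-dependent growth.

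The promoters of CYP1A1 and STS are shown because the first is the textbook target of the aryl hydrocarbon receptor and the second belongs to the gene with the clearest changes below. Sequences are from RefSeq (build GRCh38.p14) and run 5' to 3' on the gene's strand, 250 bases before to 50 after the annotated start. Of the 9 genes, 5 were matched in the RefSeq promoters: HSD17B4, HSD17B8, CYP1A1, STS and UGT2B15. The CYP1A1 window is chr15:74725479-74725778 on the minus strand, and capitals mark GCGTG or its reverse complement, the core of the aryl hydrocarbon response element. For STS, 5 starts were listed, and those shown, picked among the 3 that hold the estrogen response half-site, are chrX:7147040-7147339 and chrX:7251994-7252293 on the plus strand, in which capitals mark that half-site, GGTCA or its reverse complement. 
CYP1A1: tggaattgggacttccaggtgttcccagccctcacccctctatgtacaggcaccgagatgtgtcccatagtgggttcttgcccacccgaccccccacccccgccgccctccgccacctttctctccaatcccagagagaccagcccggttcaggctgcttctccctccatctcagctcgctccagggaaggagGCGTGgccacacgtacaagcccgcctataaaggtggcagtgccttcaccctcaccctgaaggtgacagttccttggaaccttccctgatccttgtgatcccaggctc
STS, upstream start: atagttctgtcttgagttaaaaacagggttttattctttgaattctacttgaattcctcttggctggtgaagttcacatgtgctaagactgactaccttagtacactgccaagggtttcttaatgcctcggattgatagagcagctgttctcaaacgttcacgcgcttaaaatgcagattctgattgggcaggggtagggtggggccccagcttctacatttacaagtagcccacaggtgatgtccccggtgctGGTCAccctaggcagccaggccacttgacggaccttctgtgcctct
STS, downstream start: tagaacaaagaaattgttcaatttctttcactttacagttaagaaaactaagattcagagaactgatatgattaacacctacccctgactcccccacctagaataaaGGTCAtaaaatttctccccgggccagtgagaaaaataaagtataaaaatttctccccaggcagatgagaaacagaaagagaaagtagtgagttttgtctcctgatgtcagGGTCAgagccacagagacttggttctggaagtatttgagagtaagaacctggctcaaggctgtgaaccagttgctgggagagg
The core GCGTG was present once in the CYP1A1 window, at position -57 from the start, and in 36.5% of all 35116 promoters of that length on either strand. It was also present in 2 of the 5 STS windows and 2 times in that of HSD17B8. The half-site GGTCA was present in 3 of the 5 STS windows, 1 time in the HSD17B4 window and 2 times in that of UGT2B15, and in 37.4% of all promoters. The full estrogen response element (GGTCA, any 3 bases, then TGACC) was present in 0 of the 9 windows of these genes and in 0.057% of all promoters. The HOX-type motif CCAATAAA was present in 0 of the 9 windows and in 0.934% of all promoters. The half-site lies within the full element, and these matches describe letters in short windows only. Gene-level counts do not show which STS start was used.

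Library totals were 17679824 to 21385996 counts, and within-group pairs of libraries differed by far more than counting noise, with a chi-square per degree of freedom of 7.03 to 46.3. HOXB13 itself had 110, 92 and 97 counts in HOXB13 cells with estradiol and 112, 106 and 108 with vehicle, against 0, 0 and 0 in control cells with estradiol and 2, 0 and 1 with vehicle. GREB1, a classical estrogen target, averaged 517 CPM (counts scaled to library size, per 1e6) with estradiol against 213 with vehicle in HOXB13 cells, and 529 against 157 in control cells. The 9 luminal epithelial markers summed to 19200 to 26900 CPM in every library. Of 13 markers of other cell types, 12 were symbols in the table, and they summed to 55.8 to 65.7 CPM in HOXB13 cells with estradiol, 54.5 to 63 with vehicle, 59.2 to 63.4 in control cells with estradiol and 59.7 to 63.9 with vehicle. Nearly all of that was COL1A1, a collagen gene of fibroblasts, at 51.5 to 64.1 CPM over the 12 libraries. The other 11 summed to 0.677 to 3.13 CPM, with the endothelial marker CDH5 at 0 in all libraries. On the second principal component of the expression values the 4 libraries numbered 2 stood apart from the rest, 1 from each group, and this touches several results below.

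Levels were set side by side per length, as CPM per kilobase of the principal transcript in GENCODE v29, and medians over the 12 libraries are given. Where a gene has several principal transcripts the longest was used. For HSD17B1 it has 4982 bases, against 5658 for all annotated exons, and a shorter one would give a higher value. HSD17B4 was the highest at 53.9 CPM per kilobase, followed by HSD17B8 at 39.9 and CYP1B1 at 29. STS stood at 11.8, SULT1A1 at 8.62, HSD17B1 at 6.55 and CYP1A1 at 2.28. The order of STS and SULT1A1 depended on the group: in control cells with estradiol STS averaged 7.3 and SULT1A1 9.9 CPM per kilobase, while STS was the higher in the other groups. UGT2B15 at 0.0973 and HSD17B2 at 0.0352 were barely detected. Neighbours in this order overlapped over the libraries, down to CYP1A1: HSD17B4 ranged from 47.2 to 59.8 CPM per kilobase, HSD17B8 from 32.2 to 51.3, CYP1B1 from 16.3 to 39.6, STS from 6.54 to 18.1, SULT1A1 from 7.83 to 12.5, HSD17B1 from 3.81 to 10.3 and CYP1A1 from 0.396 to 5.65. UGT2B15 (0.0252 to 0.332) lay below CYP1A1 and overlapped HSD17B2 (0 to 0.239). With the length of all annotated exons in place of the principal transcript, HSD17B8 at 33.7 and CYP1B1 at 25.3 stood above HSD17B4 at 13.6, and HSD17B1 at 5.76 above SULT1A1 at 1.81; the principal transcript was adopted after those values were seen.

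**Figure D1:**
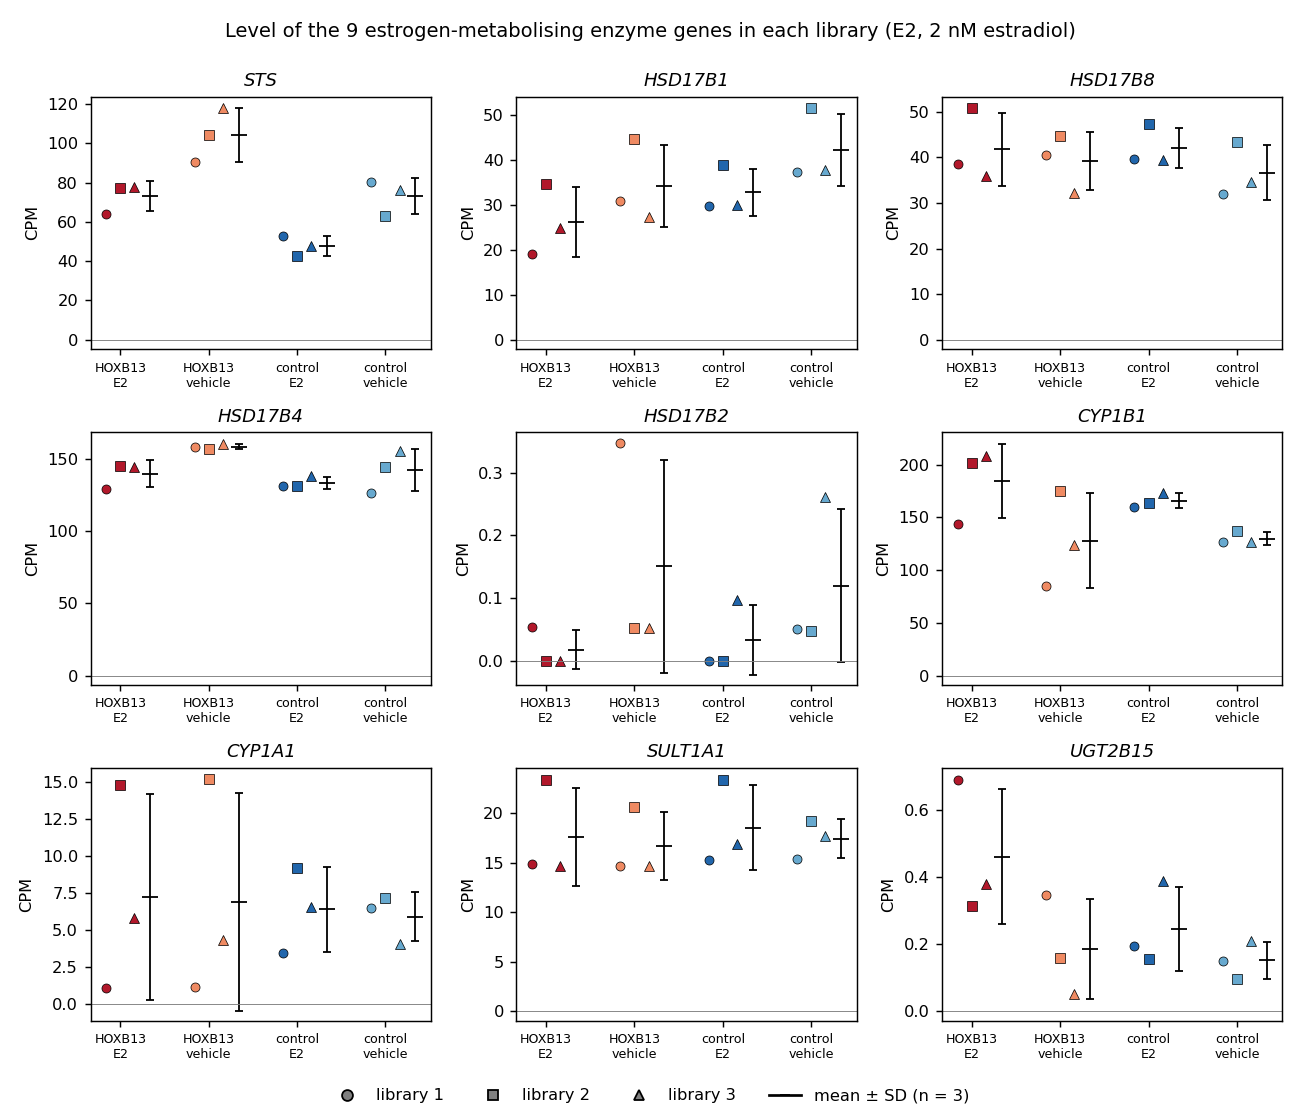
CPM of each of the 9 genes (y axes, linear) in the 12 libraries, grouped by genotype and treatment (x axes); symbols mark the replicate number and bars the mean ± SD (n = 3). STS separates by treatment and by genotype. CYP1A1, SULT1A1 and HSD17B8 are highest in the libraries numbered 2, and HSD17B2 and UGT2B15 stay under 1 CPM. Bars that pass below 0 are an SD larger than the mean.

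STS, the sulfatase that frees estrone from estrone sulfate, was lower with estradiol in both genotypes and higher in HOXB13 cells in both treatments. In HOXB13 cells it had 64.2, 77.1 and 77.8 CPM with estradiol, against 90.4, 104 and 118 CPM with vehicle. In control cells it had 52.6, 42.7 and 47.5 CPM with estradiol, against 80.1, 63.0 and 76.4 CPM with vehicle. Every estradiol library was below every vehicle library of its genotype, and every HOXB13 library was above every control library of its treatment. HOXB13 cells with estradiol averaged 73.1 ± 7.67 CPM and control cells with vehicle 73.2 ± 8.99 CPM (SD, n = 3 each), so those groups lay at nearly the same level. In bulk RNA, fewer cells with the transcript and less of it per cell cannot be told apart.

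With estradiol STS fell in control cells by 0.62 on the log2 scale (SE 0.134, adjusted p = 0.00563, edgeR quasi-likelihood test with Benjamini-Hochberg adjustment over the 14799 genes, as in all adjusted p-values here). It fell by 0.51 in HOXB13 cells (SE 0.133, adjusted p = 0.0192). In both comparisons STS was the only member called, 1 of 7, where 6.72% of all genes fell and 8.65% rose in control cells, and 6.38% fell and 7.22% rose in HOXB13 cells. The call in HOXB13 cells was lost without library 1 of HOXB13 cells with estradiol (adjusted p = 0.101) or without library 3 of HOXB13 cells with vehicle (adjusted p = 0.0838). Averaged over both genotypes STS fell by 0.57 (SE 0.0941, adjusted p = 0.000424), and the difference of the 2 responses, HOXB13 minus control, was 0.11 with a 95% interval of -0.29 to 0.51 (adjusted p = 1).

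The STS level was 1.48-fold higher in HOXB13 cells averaged over both treatments, with a log2 fold change of 0.56 (SE 0.0941, adjusted p = 0.0317), and in that comparison 0.0878% of all genes rose and 0.0608% fell. STS ranked 15 of all genes by p-value. Leaving out each library in turn gave adjusted p-values of 0.0328 to 0.114 and ended the call for 8 of the 12. The call was lost without control vehicle libraries 1 (adjusted p = 0.0509) or 3 (0.0689), without control estradiol libraries 1 (0.0525), 2 (0.0742) or 3 (0.109), without HOXB13 estradiol libraries 2 (0.071) or 3 (0.114), or without HOXB13 vehicle library 3 (0.103). The 7 alternatives of tool, scaling, filter, block or libraries numbered 2 kept the averaged call, with adjusted p-values of 6.11e-06 to 0.0373. Within a treatment the HOXB13 comparison was not past the threshold for any member. STS had a log2 fold change of 0.51 in vehicle (SE 0.132, adjusted p = 0.622) and 0.62 in estradiol (SE 0.134, adjusted p = 0.339). In these edgeR tests 559 genes in vehicle and 489 in estradiol had an unadjusted p under 0.05. That is fewer than the 740 expected if no gene differed, so a change not past the threshold there is not shown to be absent. With the replicate number as a block, in the comparisons where same-numbered libraries moved together, STS passed in vehicle (log2 fold change 0.51, adjusted p = 0.0223) and in estradiol (0.62, adjusted p = 0.00413). All genes called in either direction were 0.0203% in vehicle and 0.0135% in estradiol, and with the block 0.189% rose in vehicle and 0.142% in estradiol. Of the variance of STS over the 12 libraries, 89% lay between the groups and 2.42% between replicate numbers, against medians of 38.3% and 25.4% over all genes tested.

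**Figure D2:**
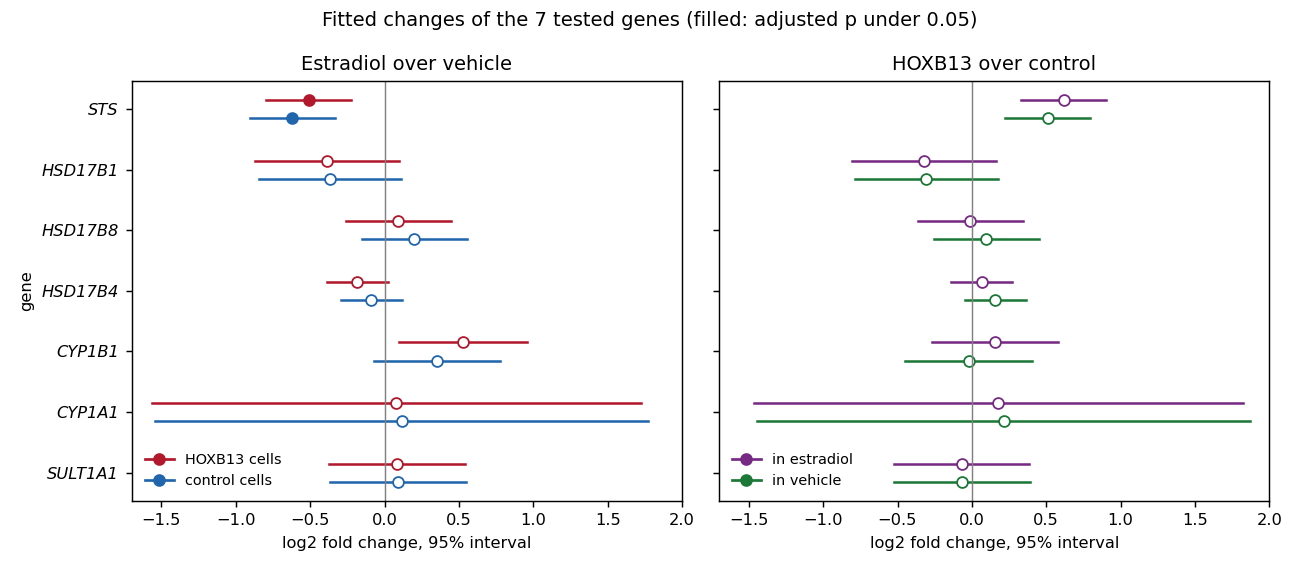
Fitted log2 fold changes with 95% intervals (x axes) of the 7 tested genes (y axes), for estradiol over vehicle within each genotype and for HOXB13 over control within each treatment; filled points passed an adjusted p of 0.05. STS is the only filled gene, at -0.51 in HOXB13 cells and -0.62 in control cells, and its HOXB13 changes of 0.62 and 0.51 are open.

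The 3 genes whose log2 CPM followed STS most closely over the 12 libraries, out of 10859 considered, were ABCC5 (Pearson r = 0.967), STK32B (0.96) and CBLN2 (0.956). These are descriptions, since all the libraries share the groups and the scaling.

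The HSD17B family members come next. HSD17B1 encodes the main reductive enzyme of this kind in breast and placenta, which turns estrone into estradiol. In HOXB13 cells it had 19.0, 34.5 and 24.9 CPM with estradiol, against 30.7, 44.5 and 27.1 CPM with vehicle. In control cells it had 29.6, 38.7 and 29.8 CPM with estradiol, against 37.3, 51.4 and 37.8 CPM with vehicle. The groups overlapped, but the library numbered 2 was the highest in all 4 groups, and each estradiol library was below the vehicle library of its own number, with ratios of 0.617 to 0.918 in HOXB13 cells and 0.752 to 0.795 in control cells. The log2 fold change with estradiol was -0.39 in HOXB13 cells (SE 0.226, adjusted p = 0.313) and -0.37 in control cells (SE 0.223, adjusted p = 0.311). With the replicate number as a block it fell by 0.39 in HOXB13 cells (adjusted p = 0.00476) and by 0.36 in control cells (adjusted p = 0.00625); with the block 15% of all genes fell in HOXB13 cells and 16.5% in control cells. In HOXB13 cells each library was below the control library of its number. The ratios were 0.64 to 0.892 in estradiol and 0.718 to 0.866 in vehicle, and neither comparison passed with or without the block. Averaged over treatments the HOXB13 change did not pass (-0.31), but did with the block (-0.33, adjusted p = 0.0116) and without libraries numbered 2 (-0.40, adjusted p = 0.0367). Of all genes, 228 fell there with the block and 91 without libraries numbered 2. Averaged over genotypes the estradiol change did not pass (-0.38), but did with the block (-0.38, adjusted p = 0.000113). Replicate number accounted for 45.8% of the variance of HSD17B1 and group for 46.8%. In GENCODE v29 an antisense gene covers 34.8% of its exons, and as no source used here gives the strand setting of the counting, its counts are uncertain to that extent.

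HSD17B4 encodes a peroxisomal enzyme that oxidises estradiol and also acts in fatty acid breakdown. It had 129, 146 and 145 CPM with estradiol against 159, 157 and 161 CPM with vehicle in HOXB13 cells, and 131, 132 and 139 CPM with estradiol against 127, 145 and 156 CPM with vehicle in control cells. In HOXB13 cells the estradiol libraries were all lower, with a log2 fold change of -0.18 (adjusted p = 0.252), and with the replicate number as a block it fell by 0.18 (adjusted p = 0.0455). In control cells the ranges overlapped and the log2 fold change was -0.09 (adjusted p = 0.591). It was the steadiest of the tested genes, with a highest library 1.27-fold above the lowest.

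HSD17B8 encodes another dehydrogenase that oxidises estradiol in cell systems and takes part in mitochondrial fatty acid synthesis. It had 38.6, 50.8 and 35.8 CPM with estradiol against 40.6, 44.6 and 32.2 CPM with vehicle in HOXB13 cells, and 39.6, 47.2 and 39.4 CPM with estradiol against 31.9, 43.4 and 34.6 CPM with vehicle in control cells. All groups overlapped, and the 4 libraries numbered 2, at 43.4 to 50.8 CPM, were above all others. Replicate number accounted for 69.4% of the variance of HSD17B8 and group for 16.4%. The log2 fold change with estradiol was 0.09 in HOXB13 cells (adjusted p = 0.782) and 0.20 in control cells (adjusted p = 0.478), and with HOXB13 it was -0.01 in estradiol (adjusted p = 0.999) and 0.10 in vehicle (adjusted p = 1).

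HSD17B2, which oxidises estradiol to estrone in many tissues, had 1, 0 and 0 counts in HOXB13 cells with estradiol and 7, 1 and 1 with vehicle, and 0, 0 and 2 in control cells with estradiol and 1, 1 and 5 with vehicle. At such counts it was not tested. The summed counts gave an estradiol over vehicle ratio of 0.189 (3 against 16 counts, exact 95% interval 0.0354 to 0.662), which covers counting error only and rests largely on 7 counts in 1 vehicle library and 5 in another.

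CYP1B1, which hydroxylates estradiol mainly at position 4 and is expressed in breast, was higher with estradiol. In HOXB13 cells it had 144, 201 and 208 CPM with estradiol, against 85.4, 175 and 124 CPM with vehicle. In control cells it had 160, 163 and 174 CPM with estradiol, against 126, 137 and 126 CPM with vehicle. The control groups did not overlap, the HOXB13 groups did, and in both genotypes each estradiol library was above the vehicle library of its number.

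Averaged over both genotypes CYP1B1 rose by 0.44 on the log2 scale (SE 0.141, adjusted p = 0.0306), 1.36-fold, and with STS it made 1 member that rose and 1 that fell among 7, against 14.6% and 13.5% of all genes. Leaving out each library in turn ended that call for 7 of the 12: without control vehicle libraries 1 (adjusted p = 0.0632) or 3 (0.0647), control estradiol library 3 (0.0666), HOXB13 vehicle libraries 1 (0.054) or 3 (0.0572), or HOXB13 estradiol libraries 2 (0.0663) or 3 (0.0761). The 7 alternatives of tool, scaling, filter, block or libraries numbered 2 kept that averaged call, with adjusted p-values of 1.87e-05 to 0.0363. Within each genotype the log2 fold change of CYP1B1 was 0.53 in HOXB13 cells (SE 0.199, adjusted p = 0.101) and 0.35 in control cells (SE 0.199, adjusted p = 0.274). In HOXB13 cells it rose with the replicate number as a block (0.55, adjusted p = 0.0299), where 15.5% of all genes rose, and it was 0.83 without library 2 of HOXB13 cells with vehicle (adjusted p = 0.00577). With only the 6 control libraries it passed there too (0.35, adjusted p = 0.0425). The difference of the responses was 0.18 with a 95% interval of -0.43 to 0.78, and HOXB13 over control was 0.15 in estradiol (adjusted p = 0.999) and -0.02 in vehicle (adjusted p = 1). The antisense gene CYP1B1-AS1 covers 11.3% of its exons in GENCODE v29 and had 0.37 to 1.36 CPM. The genes closest to CYP1B1 were TRNP1 (Pearson r = 0.929), FAM118A (0.914) and THAP11 (0.908).

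CYP1A1, which hydroxylates estradiol mainly at position 2 and is induced through the aryl hydrocarbon receptor, varied more by replicate number than by group. In HOXB13 cells it had 1.06, 14.8 and 5.80 CPM with estradiol and 1.14, 15.2 and 4.29 CPM with vehicle, in the order of replicates 1, 2 and 3. In control cells it had 3.47, 9.18 and 6.54 CPM with estradiol and 6.47, 7.18 and 4.02 CPM with vehicle. All 4 libraries numbered 2 were above all others, at 7.18 to 15.2 CPM, against 1.06 to 6.47 CPM in those numbered 1 and 4.02 to 6.54 CPM in those numbered 3. The highest CYP1A1 library was 14.3-fold above the lowest, and 63.5% of the variance lay between replicate numbers, against 3.13% between groups.

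No comparison of CYP1A1 passed, and its intervals were wide. The log2 fold change with estradiol was 0.08 in HOXB13 cells (adjusted p = 0.964) and 0.11 in control cells (SE 0.773, adjusted p = 0.95, 95% interval -1.54 to 1.77). Its neighbour in the family CYP1A2, a lower gene, had 0.106, 2.40 and 0.596 CPM in HOXB13 cells with estradiol and 0.347, 1.95 and 0.942 with vehicle, and 0.342, 0.980 and 0.873 CPM in control cells with estradiol and 0.903, 1.58 and 0.626 with vehicle. Over the 12 libraries log2 CPM of CYP1A1 had a Pearson r of 0.914 with CYP1A2, 0.76 with NQO1, a quinone reductase, and 0.651 with CYP1B1. CYP1A1 also had an r of 0.734 with SULT1A1, 0.641 with HSD17B1, 0.401 with HSD17B8, 0.0461 with HSD17B4 and -0.0294 with STS. It had an r of -0.162 with AHRR and -0.154 with TIPARP, further targets of the receptor, -0.306 with AHR, the receptor, and -0.636 with ARNT, its partner. These libraries share 4 groups and 3 numbers, the r values are descriptions, and what sets the libraries numbered 2 apart was not tested.

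**Figure D3:**
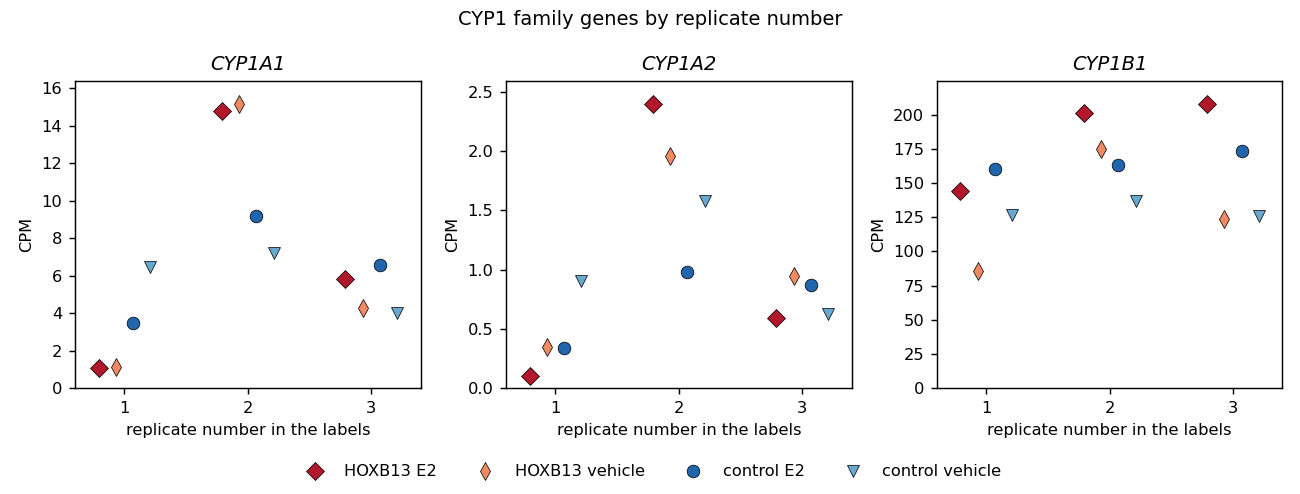
CPM of CYP1A1, CYP1A2 and CYP1B1 (y axes, linear, from 0) by replicate number in the labels (x axes, offset so that points do not overlap), with a symbol for each group. The 4 libraries numbered 2 hold the 4 highest CYP1A1 values, 7.18 to 15.2 CPM; CYP1B1 is higher with estradiol than with vehicle within each number and genotype.

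SULT1A1 encodes a phenol sulfotransferase that sulfates estrogens and catechol estrogens. In HOXB13 cells it had 14.9, 23.3 and 14.7 CPM with estradiol and 14.7, 20.7 and 14.6 CPM with vehicle. In control cells it had 15.3, 23.4 and 16.9 CPM with estradiol and 15.3, 19.2 and 17.7 CPM with vehicle. Groups overlapped, and 83.8% of its variance lay between replicate numbers, the 4 libraries numbered 2 being the highest at 19.2 to 23.4 CPM. The log2 fold change with estradiol was 0.08 in HOXB13 cells (adjusted p = 0.859) and 0.09 in control cells (adjusted p = 0.836), and no comparison passed. The near-identical SULT1A2, SULT1A3 and SULT1A4 could share reads with it, so its count is uncertain to that extent. It followed HSD17B8 over the libraries (Pearson r = 0.8, n = 12 libraries), and both genes were highest in the libraries numbered 2.

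UGT2B15, which glucuronidates androgens and some estrogen metabolites, had 13, 6 and 7 counts in HOXB13 cells with estradiol and 7, 3 and 1 with vehicle, and 4, 3 and 8 in control cells with estradiol and 3, 2 and 4 with vehicle. It was not tested at these counts. Each estradiol library was above the vehicle library of its number, and the summed counts gave an estradiol over vehicle ratio of 2.44 in HOXB13 cells (exact 95% interval 1.16 to 5.46), 1.65 in control cells (0.678 to 4.28) and 2.07 in both together (41 against 20 counts, 1.19 to 3.73), counting error only. Its close relative UGT2B17, with which it could share reads, had 0 counts in all libraries.

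Beside the members, 105 further genes in 7 lists of estrogen metabolism were looked up, and 48 were tested. With estradiol averaged over both genotypes 9 rose and 8 fell, against 14.6% and 13.5% of all genes. The median log2 fold change was -0.112 where that of all genes was -0.00964. SULT1A2, counted among those that rose here and in HOXB13 cells, passed the low-count filter only through estradiol libraries. With estradiol 5 rose and 3 fell in HOXB13 cells, against 7.22% and 6.38% of all genes, and 5 rose and 3 fell in control cells, against 8.65% and 6.72%. In the fits blocked on replicate number these counts were 10 and 10 in HOXB13 cells, against 15.5% and 15%, and 10 and 9 in control cells, against 17.5% and 16.5%. Leaving out each library in turn gave 2 to 6 that rose and 1 to 4 that fell in HOXB13 cells, and 2 to 6 and 0 to 4 in control cells. In the HOXB13 comparisons 0 of 48 passed, within either treatment or averaged; SLCO3A1 fell in the averaged comparison under 4 alternatives. The 7 tested members had medians of 0.0853 for estradiol and 0.0665 for HOXB13 over control, averaged, where all genes had 0.00014 for HOXB13. For the difference of the 2 responses 0 of the 7 members and 0% of all genes passed. In the edgeR test 219 genes had an unadjusted p under 0.05, fewer than the 740 expected if no gene differed. DESeq2 and limma-voom each called 0. A fit with no filter on low counts called 3 that rose and 1 that fell, and a fit without the libraries numbered 2 called 1 that fell.

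In the lists that follow, calls are for estradiol averaged over both genotypes unless stated, where 14.6% of all genes rose and 13.5% fell. Among other steroid oxidoreductases 3 of 6 tested rose and 1 fell. Within a genotype 1 rose and 0 fell in HOXB13 cells, and 0 rose and 1 fell in control cells. HSD17B7, which reduces estrone and acts in cholesterol synthesis, averaged 20.7 CPM with estradiol and 14.8 with vehicle, HSD17B12, a fatty acid elongation enzyme that can reduce estrone, 95.6 and 71.9, and DHRS11 17.2 and 12.4. HSD17B6, which acts on androgen metabolites, fell to 2.05 CPM with estradiol, against 4.43 with vehicle (log2 fold change -1.13, adjusted p = 0.00954). Of the steroidogenic enzymes 1 of 5 tested rose: HSD11B2, which inactivates cortisol, at 6.17 CPM with estradiol against 2.54 with vehicle (1.27, adjusted p = 0.000198). CYP19A1, the aromatase that makes estrogens from androgens, had 0 counts in every library, as had HSD17B3.

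Among other estrogen-oxidising P450s and genes of catechol handling 1 of 8 tested rose and 0 fell. NQO2, a quinone reductase, averaged 22.2 CPM with estradiol and 14.8 with vehicle (log2 fold change 0.59, adjusted p = 0.00314). In the aryl hydrocarbon receptor pathway 2 of 7 tested rose and 1 fell. TIPARP, a feedback regulator of the receptor, averaged 40.1 CPM with estradiol and 29.5 with vehicle, PTGES3, its co-chaperone, 448 and 361, and AHRR, its repressor, 2.50 and 4.12 (-0.70, adjusted p = 0.0315).

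Among sulfotransferases and genes of sulfate supply 1 of 8 tested rose and 4 fell. PAPSS2, which makes the sulfate donor, fell to 52.7 CPM with estradiol, against 81.7 with vehicle (log2 fold change -0.64, adjusted p = 0.000642), and PAPSS1, its paralog, to 52.6 against 60.6. SULT2B1, which sulfates cholesterol, averaged 22.5 CPM with estradiol and 31.1 with vehicle, and BPNT1, which breaks down the spent donor, 90.2 and 103. SULT1A2, the 1 that rose, passed the low-count filter only through estradiol libraries, so its call is no support for a rise. It averaged 0.509 CPM with estradiol against 0.0982 with vehicle, very low levels, and may share reads with SULT1A1. Estrogen sulfotransferase SULT1E1 had 0 counts in all libraries.

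Among other sulfatases and carriers of steroid sulfates 1 of 9 tested rose and 2 fell. SLCO4A1, a carrier of organic anions, averaged 3.19 CPM with estradiol and 0.837 with vehicle (log2 fold change 1.93, adjusted p = 0.000109). SLCO3A1, a related carrier, averaged 8.37 CPM with estradiol and 14.5 with vehicle (-0.81, adjusted p = 0.00299). It averaged 8.97 CPM in HOXB13 cells and 13.9 in control cells over both treatments (-0.65, adjusted p = 0.286), and fell with DESeq2 (adjusted p = 0.0467), with no filter (0.000496) and without the libraries numbered 2 (-0.95, adjusted p = 0.00152). ARSD, a relative of STS, averaged 160.7 CPM with estradiol and 197.4 with vehicle. Of the glucuronidation list 5 of 22 were tested and none was called. UGT2B4, UGT2B17, UGT2B28 and 8 UGT1A genes had 0 counts in every library. Reads that such related genes share may have been counted for none of them, so these 0 counts need not mean no transcript. Of the 17 listed genes called, 13 kept the call whichever library was left out. AHRR lost it for 5 of the 12 libraries, DHRS11 and PAPSS1 for 9 each and BPNT1 for 10.

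**Figure D4:**
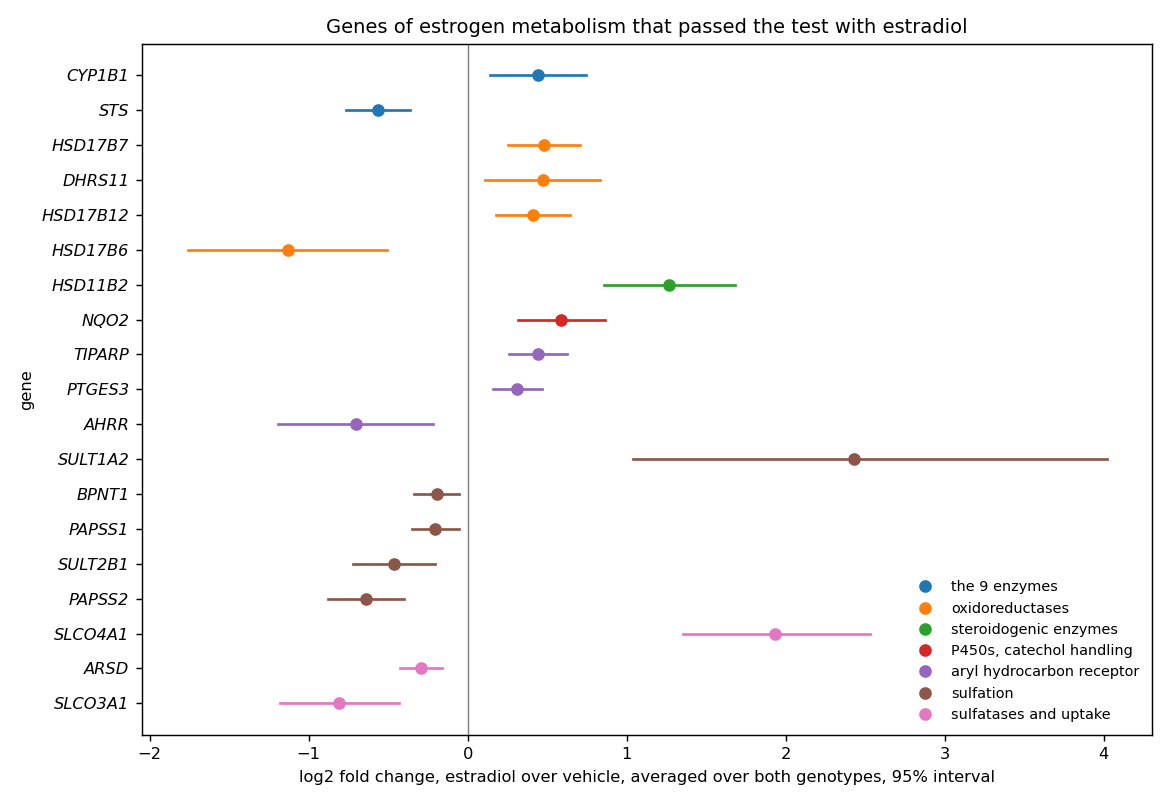
Log2 fold change of estradiol over vehicle averaged over both genotypes (x axis) with 95% intervals, for the 2 members and the 17 listed genes (y axis) that passed the test, coloured by list. STS falls with the 8 genes to the left of 0, at -0.57, and CYP1B1 rises at 0.44. SULT1A2, at 2.43, rests on 0 to 16 counts per library and passed the low-count filter only through estradiol libraries.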

How the data were processed

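RNA sequencing of 12 T47D libraries, 3 per group, was analysed from the table the authors deposited, raw counts per gene symbol, with 0 unmapped columns. Per the submitters' processing notes, FastQC, STAR, Picard and HTSeq and the builds GRCh37 and hg19 were used, and the sources used here give no versions, annotation release or strand setting. From those counts, genes were kept by filterByExpr (10 counts, total of 15) and scaled by TMM, and a robust quasi-likelihood test in edgeR 4.0.16 (R 4.3.3) was fitted over all 12 libraries by group, with Benjamini-Hochberg adjustment at 0.05. CPM used effective library sizes, and log2 CPM a prior count of 2. Alternatives were DESeq2 1.42.0, limma 3.58.1, other scalings, no filter, the replicate block and leaving libraries out. Genes named were the 9 members, checks of genotype and treatment, listed genes past the threshold and, for members that passed, the 3 closest genes. Some listed genes are not reported here. Members and lists were chosen with earlier results of these data known. The fit was tested on simulated data drawn without an effect of replicate number, so that test does not cover the shared deviations given next. Same-numbered libraries deviated together in each pairwise comparison (correlation 0.123 to 0.457, all above 0.1), so the replicate block is given there where it changes a call; over averaged comparisons the lowest was 0.0926. Totals were 17679824 to 21385996 counts; intervals on counts cover counting error only.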

Additional observations from a re-analysis of the deposited data

How the results depend on the processing

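For the 7 tested members, 959 alternative fits were compared with those reported: 922 kept their side of the threshold, 17 lost it, 20 gained it and 0 reversed a called change; the sign differed in 85, all where neither fit passed (CYP1A1 35, SULT1A1 24, HSD17B8 12, HSD17B1 8, CYP1B1 6). Members that rose with estradiol in control cells numbered 0, and 1 with only the 6 libraries compared; those that fell numbered 1, and 2 with the replicate block. In HOXB13 cells 0 rose, and 1 with no filter, with the block or without all libraries numbered 2 (0 to 1 leaving out 1 library); 1 fell, and 3 with the block, 2 without libraries numbered 2 (0 to 1 leaving out 1 library). Members that rose with HOXB13 numbered 0 in vehicle, and 1 with the block; in estradiol 0, and 1 with DESeq2, with no filter or with the block. Averaged over genotypes, 1 member rose with estradiol (0 to 1 leaving out 1 library) and 1 fell, or 2 with no filter or without libraries numbered 2, and 3 with the block (1 to 2 leaving out 1 library). Of all genes, 2074 to 3362 rose and 1776 to 3369 fell in that comparison over the 7 alternatives. Leaving out 1 library, 1818 to 2448 rose and 1620 to 2227 fell. HSD17B1 was the second to fall with no filter (adjusted p = 0.00444), without libraries numbered 2 (0.00399) or without HOXB13 estradiol library 2 (0.0262). Averaged over treatments, 1 member rose with HOXB13 (0 to 1 leaving out 1 library) and 0 fell, or 1 with the block or without libraries numbered 2 (HSD17B1, adjusted p = 0.0116 and 0.0367). All genes called moved as well. With estradiol in HOXB13 cells, 957 to 2297 rose and 753 to 2222 fell over the 8 alternatives other than leaving out 1 library. In control cells 1022 to 2594 rose and 776 to 2438 fell over those 8. Without libraries numbered 2, 1741 rose and 1544 fell in HOXB13 cells. The block moved genes called, rose and fell, from 1280 and 995 to 2594 and 2438 for estradiol in control cells, and from 1068 and 944 to 2297 and 2222 in HOXB13 cells. For HOXB13 it moved them from 3 and 0 to 28 and 32 in vehicle, and from 2 and 0 to 21 and 37 in estradiol. Averaged, it moved them from 2154 and 2004 to 3362 and 3369 for estradiol, and from 13 and 9 to 158 and 228 for HOXB13. For HOXB13 averaged, DESeq2 called 50 and 54, no filter 71 and 70, and the fit without libraries numbered 2 called 65 and 91; within a treatment the same 3 called 8 to 37 that rose and 7 to 25 that fell. The cause of these moves was not tested. For the listed genes already called, 640 fits left 530 on the same side of the threshold and 110 lost it; these fits could not show gains. Counting all listed genes, with the block 10 rose and 17 fell with estradiol averaged over genotypes, in place of 9 and 8. In that fit 3362 of all genes rose and 3369 fell. With HOXB13 averaged over treatments, 0 rose and 1 fell with the block, in place of 0 and 0 (SLCO3A1, adjusted p = 0.0151). In HOXB13 cells DESeq2, limma-voom and no filter each gave 5 that fell with estradiol in place of 3. In control cells 2 in place of 5 rose with only the 6 libraries compared. HSD17B2 and UGT2B15, with at most 13 counts in a library, allow only the wide count ratios given.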
